A study of Mus musculus with 8 samples.

Results

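Immediate-early genes are transcribed within minutes of a stimulus without new protein synthesis, and 10 of them were followed here in the mouse aorta: Egr1, Egr2, Egr3, Ier2, Ier3, Nr4a1, Nr4a2, Nr4a3, Dusp1 and Zfp36. They were read through all probe sets annotated to exactly 1 of these symbols, which gave 19 probe sets of the 45037 in the table. The labels describe aortas of 4 month-old mice, hybridised to Affymetrix arrays after 8 days had passed since tamoxifen. The 4 control arrays came from SRF-flex2neo littermates, which carried the floxed gene of serum response factor (SRF) and no Cre by their label. The 4 mutant arrays came from SRF-flex2neo -SM22CreERT2ki/+ mice, in which a tamoxifen-activated Cre sits in an allele of the smooth muscle gene SM22 (Tagln), so that deletion is directed to smooth muscle. Tamoxifen, 1 mg intraperitoneally for 3 days, was given to controls and mutants alike. Array titles end in a set number: controls and mutants 1 and 2 carry the number 1 and make up set 1, and controls and mutants 3 and 4 carry the number 2 and make up set 2. No label says what the set number means or whether each array stands for its own mouse, so the spread between arrays that p-values measure here may be technical.

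SRF binds a DNA element called the CArG box. At immediate-early genes it works with ternary complex factors such as Elk1, Elk3 and Elk4, which the ERK kinase pathway switches on, whereas at contractile genes it works with myocardin and related cofactors. Many immediate-early promoters also bind CREB, a factor activated by cyclic AMP and calcium. The mRNAs are short-lived, and in whole vessels they are known to respond to stretch, injury and handling.

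Promoter sequences near the start sites were searched for motifs of these factors. RefSeq promoter windows on GRCm38.p6, from 250 bases before to 50 bases after a start, were available for 7 of the 10 genes. Egr1, Egr3 and Ier2 had no window and were not searched. The strict CArG box was searched as CC, then 6 bases that are each A or T, then GG. This pattern has the same form on both strands, though the letters of a single box can differ. It lay in windows of 2 of the 7 genes, Egr2 and Zfp36, against 1.81% of the 27025 genes with a window. Egr2 has 5 windows, several of them overlapping, and 4 of these hold a box, at 2 distinct places. The 3 boxes are shown with 30 bases on either side, with the CArG box in capitals. The Egr2 stretches are chr10:67537464-67537533 and chr10:67537767-67537836 on the plus strand, and each box begins 72 bases before an annotated start. The Zfp36 stretch is chr7:28379247-28379316 on the minus strand, and its box begins 58 bases before the start.
Egr2, upstream box: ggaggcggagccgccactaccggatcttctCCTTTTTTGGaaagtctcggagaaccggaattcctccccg
Egr2, downstream box: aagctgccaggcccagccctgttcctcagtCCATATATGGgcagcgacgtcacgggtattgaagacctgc
Zfp36: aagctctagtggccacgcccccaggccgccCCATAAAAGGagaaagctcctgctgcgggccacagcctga

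The Nr4a windows held no strict CArG box. They held the CREB half-site TGACG, searched on both strands, 4 times in each of the 3 genes. This half-site occurs 1 or more times in windows of 5 of the 7 genes searched and of 23% of all genes. How many genes hold this half-site 4 times was not computed. It was also present at 3 places in the Dusp1 window, 2 of which overlap as the full palindrome TGACGTCA, which 2.03% of all genes hold, and at 2 places in the Egr2 windows. The TATA motif TATAAA, searched on both strands, lay in the window of Nr4a2 and in 15.7% of all genes. The Ier3 window held none of these motifs. The stretches of Dusp1 and of the 3 Nr4a genes are shown with TGACG or its reverse complement CGTCA in capitals. Dusp1 is chr17:26508578-26508693 on the minus strand, Nr4a1 is chr15:101266596-101266840 on the plus strand, Nr4a2 is chr2:57124080-57124233 on the minus strand and Nr4a3 is chr4:48045055-48045192 on the plus strand. A match is a description of these letters and no evidence of binding in the aorta.
Dusp1: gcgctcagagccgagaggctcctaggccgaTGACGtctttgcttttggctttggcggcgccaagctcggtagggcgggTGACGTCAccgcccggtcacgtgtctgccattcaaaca
Nr4a1: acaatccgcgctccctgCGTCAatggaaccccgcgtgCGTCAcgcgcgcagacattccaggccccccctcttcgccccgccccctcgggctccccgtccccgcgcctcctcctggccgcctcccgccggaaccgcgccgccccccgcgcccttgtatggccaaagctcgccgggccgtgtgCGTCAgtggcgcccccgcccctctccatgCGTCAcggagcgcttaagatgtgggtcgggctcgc
Nr4a2: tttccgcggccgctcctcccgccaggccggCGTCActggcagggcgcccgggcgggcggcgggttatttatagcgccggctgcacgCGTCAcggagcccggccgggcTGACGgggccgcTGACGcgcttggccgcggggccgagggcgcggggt
Nr4a3: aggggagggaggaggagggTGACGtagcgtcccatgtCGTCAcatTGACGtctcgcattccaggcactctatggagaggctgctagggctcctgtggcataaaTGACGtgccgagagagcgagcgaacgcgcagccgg

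Signals are given as deposited, as log2 values per probe set, where a difference of 1 is a 2-fold change. Array medians lay between 3.72 and 3.98, and the number of arrays limits the precision. The dimmest 40% of probe sets by mean were left out of the fit, which removed 4 of the 19 member probe sets (1 of Egr3, 1 of Nr4a2 and 2 of Nr4a3, all between 1.45 and 2.26 on every array) and left 15, with every gene represented. Mutant 2 stood apart from the rest, with correlations of 0.926 to 0.952 across probe sets tested, while the other 7 arrays correlated with each other at 0.965 to 0.994. Srf itself differed by -0.20 (SE 0.19, limma adjusted p = 0.686) in its brighter probe set and by -0.03 (SE 0.15) in the other. The first difference was -0.009 (limma adjusted p = 0.997) without mutant 2, where both probe sets read lowest (9.54 and 5.44), and whether either probe set lies in the deleted part of the gene was not analysed here. Of the 10 smooth muscle markers, all 10 had lower values in mutants (median -0.26, or -0.17 without mutant 2), and of the 12 endothelial, 10 fibroblast and 13 leukocyte markers all had higher ones (medians 0.99, 1.10 and 1.15). The 6 fat cell markers that could be tested were higher too, with a median of 1.22, or 0.48 without mutant 2, and no marker of any list passed the test. Summed marker signals on the log2 scale ran from 17.43 to 17.50 in controls and from 17.14 to 17.30 in mutants for smooth muscle, from 11.78 to 12.76 and from 12.51 to 14.04 for endothelium, from 14.65 to 15.64 and from 15.53 to 15.85 for fibroblasts, and from 10.30 to 11.30 and from 11.32 to 12.22 for leukocytes. No marker of these 4 lists was among the dim probe sets left out. In RNA of whole tissue, fewer cells of a type and less RNA per cell cannot be told apart, and the part of these cell types in the values of the immediate-early genes was not tested.

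None of the immediate-early genes passed the test between mutant and control aorta. A gene is described by its brightest probe set, and the difference was estimated with limma with the set as a block. Of the 15 member probe sets, 0 passed a limma adjusted p of 0.05, as did 0% of all 27029 probe sets tested. At an unadjusted p under 0.05 there was 1 of 15, that of Ier3, where the share among all probe sets was 9.55%. Control and mutant arrays overlapped in all 15 member probe sets, while they were apart in 3% of all probe sets. Over the 10 genes, 5 values were higher and 5 lower in mutants with a median of 0.02, beside a median of -0.02 over the 12176 genes tested.

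**Figure D1:**
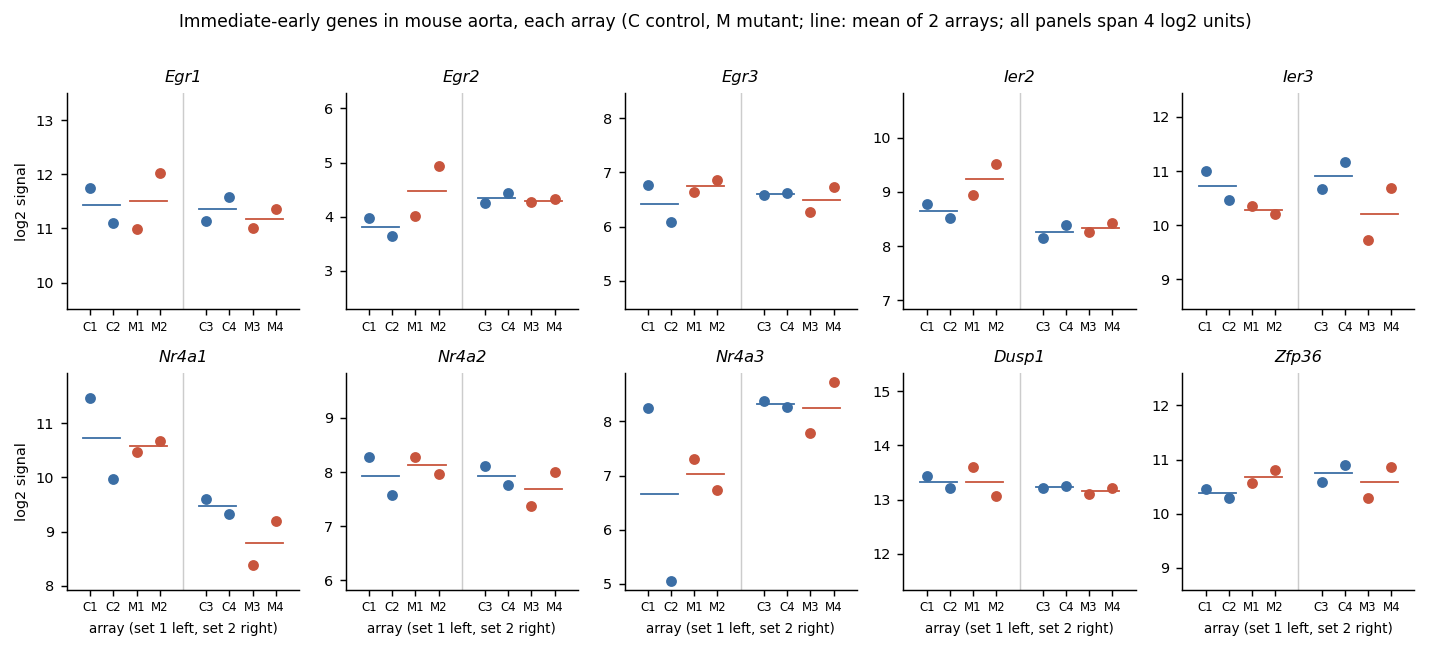
Log2 signal of the brightest probe set of each gene (vertical axis, every panel spanning 4 log2 units) on each of the 8 arrays, controls in blue and mutants in red, with a line at the mean of the 2 arrays of a group and set. Nr4a1 sits lower in set 2 in both groups, Nr4a3 has a single low array (control 2, at 5.06), and blue and red overlap in every panel.

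The Egr genes encode zinc finger transcription factors that carry growth factor signals on to later genes. Egr1, a factor that vascular injury induces in smooth muscle and endothelium, read 11.75 and 11.10 in the controls of set 1 and 11.14 and 11.58 in those of set 2, and 10.99 and 12.02 in the mutants of set 1 and 11.01 and 11.35 in those of set 2. The highest and the lowest array were both mutants, and the difference was -0.05 (SE 0.26, 95% confidence interval -0.67 to 0.57, adjusted p = 0.949). As a ratio, that interval runs from 0.627 to 1.49 of the control level. Egr3, a close relative of Egr1, read 6.76 and 6.08 in set 1 controls, 6.59 and 6.61 in set 2 controls, 6.64 and 6.86 in set 1 mutants and 6.26 and 6.73 in set 2 mutants. Its difference was 0.11 (SE 0.20, interval -0.36 to 0.58), with mutant 2 highest and control 2 lowest. Its second probe set stayed between 1.45 and 1.48 on all arrays.

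Egr2, which also directs myelination in Schwann cells, was dim in the aorta and stood out on 1 array. Its brighter probe set read 3.98, 3.64, 4.26 and 4.44 in controls 1 to 4 and 4.02, 4.94, 4.28 and 4.32 in mutants 1 to 4, a difference of 0.31 (SE 0.24, adjusted p = 0.658). Its other probe set, 1427683_at, read 3.30, 3.02, 3.69 and 3.99 in controls and 3.35, 5.76, 3.69 and 3.57 in mutants. Mutant 2 was highest in both, and the differences were 0.59 (SE 0.56) for the second probe set with that array and -0.05 without it, and 0.31 and 0.05 for the brighter one. Markers of nerve and Schwann cells moved with that array: their summed signal was 14.15 in mutant 2 and 6.05 to 7.83 on the other 7. Among these markers the myelin gene Mbp read 12.88 in mutant 2, the noradrenaline synthesis gene Dbh 11.66 and the Schwann cell factor Sox10 5.20, where the other arrays read at most 7.28, 3.19 and 3.82. Of the 8 markers of that list, 6 had a probe set annotated to the symbol alone, and all 6 were tested. Mutant 2 also had the highest summed signal of fat cell markers (16.44, others 14.03 to 15.15) and of endothelial markers (14.04, others 11.78 to 13.73). Its smooth muscle sum was the lowest (17.14, others 17.29 to 17.50). The fibroblast, leukocyte and skeletal muscle sums of mutant 2 lay within the range of the other arrays. The part of nerve tissue or of any other cell type in the Egr2 value was not tested.

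The Nr4a genes encode orphan nuclear receptors that act without a known hormone. Nr4a1 (Nur77), described in vessels as a brake on smooth muscle growth, read 11.47 and 9.97 in set 1 controls, 9.61 and 9.33 in set 2 controls, 10.47 and 10.68 in set 1 mutants and 8.38 and 9.19 in set 2 mutants. The mutant difference was -0.41 (SE 0.35, interval -1.24 to 0.41, adjusted p = 0.668), and mutant 3 was the lowest and control 1 the highest array. Without control 1, the highest array, it was -0.17, and without control 2 it was -0.77. Nr4a3 (Nor-1) read 8.25 and 5.06 in set 1 controls, 8.37 and 8.26 in set 2 controls, 7.31 and 6.74 in set 1 mutants and 7.78 and 8.72 in set 2 mutants. Control 2 lay 3.19 below the next control, and the difference of 0.15 (SE 0.65, interval -1.39 to 1.69) became -0.53 without it and 0.75 without control 1. The 2 other probe sets of Nr4a3 stayed between 1.97 and 2.26 on all arrays.

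Nr4a2 (Nurr1), the member of the family best known from dopamine neurons, had 6 probe sets, of which 5 were tested. The brightest, 1455034_at, read 8.28 and 7.57 in set 1 controls, 8.11 and 7.76 in set 2 controls, 8.28 and 7.97 in set 1 mutants and 7.37 and 8.00 in set 2 mutants. Its difference was -0.03 (SE 0.23, interval -0.56 to 0.51, adjusted p = 0.971), and the groups shared nearly the same range. The other 4 tested probe sets differed between mutant and control by -0.05 to 0.04, and control and mutant arrays overlapped in each of them. The interval was -0.53 to 0.61 for 1447863_s_at and -0.58 to 0.47 for 1450750_a_at.

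Ier2 and Ier3 encode small proteins named for their immediate-early response, Ier2 a nuclear protein and Ier3 a protein linked to cell survival under stress. Ier2 read 8.78 and 8.51 in set 1 controls, 8.15 and 8.38 in set 2 controls, 8.95 and 9.51 in set 1 mutants and 8.25 and 8.43 in set 2 mutants. Both set 1 mutants lay above both set 1 controls, and the difference was 0.33 (SE 0.17, interval -0.08 to 0.74, adjusted p = 0.570), or 0.17 without mutant 2. Ier3 read 11 and 10.46 in set 1 controls, 10.66 and 11.17 in set 2 controls, 10.36 and 10.21 in set 1 mutants and 9.72 and 10.68 in set 2 mutants. It was the member with the lowest mutant value relative to control, -0.58 (SE 0.24, interval -1.15 to -0.01), at an unadjusted limma p of 0.0482 and an adjusted p of 0.523. Set 1 gave -0.45 and set 2 gave -0.71, although mutant 4 lay just above control 3 there. It ranged from -0.75 to -0.36 when single arrays were left out, the latter without mutant 3, and the adjusted p was never below 0.444 in those fits.

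Dusp1 and Zfp36 end the signals that induce them. Dusp1, a phosphatase that inactivates MAP kinases, was the steadiest of the brightest probe sets, at 13.43, 13.21, 13.22 and 13.25 in controls 1 to 4 and 13.61, 13.06, 13.11 and 13.22 in mutants 1 to 4. The difference was -0.03 (SE 0.12, interval -0.32 to 0.26, adjusted p = 0.939), which as a ratio is 0.801 to 1.20 of the control level. Zfp36 (tristetraprolin), which binds AU-rich mRNAs and speeds their decay, read 10.46, 10.29, 10.59 and 10.90 in controls and 10.56, 10.81, 10.29 and 10.87 in mutants. It differed by 0.07 (SE 0.17, interval -0.33 to 0.48), with the groups fully interleaved.

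**Figure D2:**
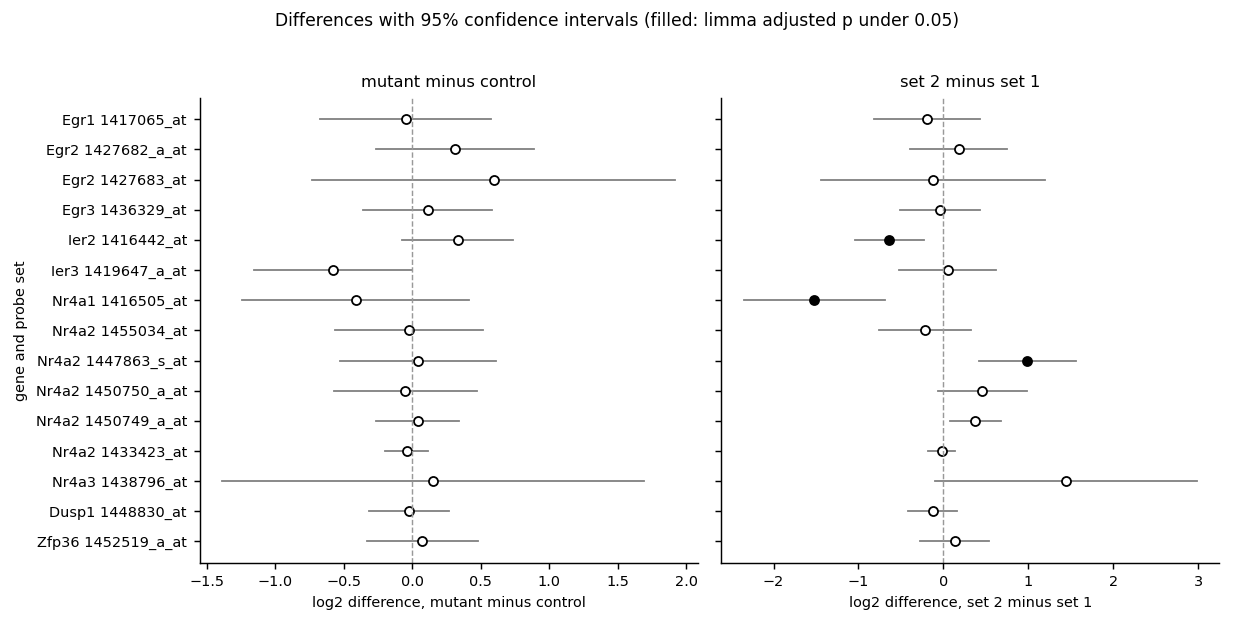
Differences on the log2 scale (horizontal axes) with 95% confidence intervals for the 15 tested probe sets, mutant minus control on the left and set 2 minus set 1 on the right, with filled points where the limma adjusted p is under 0.05. No point is filled on the left, and Ier2, Nr4a1 and 1 probe set of Nr4a2 are filled on the right.

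Between the sets, Nr4a1, Ier2 and 1 probe set of Nr4a2 differed. Set 2 minus set 1 passed in 3 of 15 member probe sets, a share near the background, since 21.4% of all probe sets passed. Nr4a1 fell by 1.52 (SE 0.35, adjusted p = 0.024), from a mean of 10.65 over the set 1 arrays to 9.13 over the set 2 arrays. That is a 2.87-fold lower signal, and every set 2 array lay below every set 1 array. Ier2 fell by 0.64 (SE 0.17, adjusted p = 0.0405), from 8.94 to 8.30, again without overlap. Sets did not overlap in 4 of the 15 member probe sets, where 31.7% of all probe sets did not. The number passing changed with the arrays kept. It was 0 of 15 without mutant 1 or without control 4, and 1 without control 1, control 3, mutant 3 or mutant 4. It was 5 without mutant 2, where both Egr2 probe sets joined (0.44 and 0.52). The share of all probe sets passing in these fits was not computed. With single arrays left out, the set difference stayed between -1.87 and -1.27 for Nr4a1 and between -0.74 and -0.47 for Ier2. For Nr4a2 1447863_s_at it stayed between 0.75 and 1.10. Without control 1 the 1 that passed was Nr4a3 (2.04, adjusted p = 0.0441). With all arrays, Nr4a3 differed by 1.44 (SE 0.65, adjusted p = 0.151).

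For Nr4a2 the probe sets had unlike values between sets, and the difference between them was not tested. Probe set 1447863_s_at rose by 0.99 in set 2 (SE 0.24, adjusted p = 0.029), from 7.13, 6.30, 7.08 and 7.19 on the set 1 arrays to 8.29, 7.88, 7.66 and 7.83 on the set 2 arrays. The brightest one, 1455034_at, had a difference of -0.22 (SE 0.23, adjusted p = 0.508). The 2 probe sets 1450750_a_at and 1450749_a_at, which share a suffix, lay between these with 0.46 (adjusted p = 0.174) and 0.38 (adjusted p = 0.0774). For 1450749_a_at the sets did not overlap, at 5.13 to 5.53 in set 1 and 5.74 to 5.91 in set 2. This probe set passed after quantile normalization (0.47, limma adjusted p = 0.0408) and with array weights (0.35, limma adjusted p = 0.0472). Probe set 1433423_at was flat at 3.11 to 3.34. Which transcripts each probe set reads was not analysed here.

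**Figure D3:**
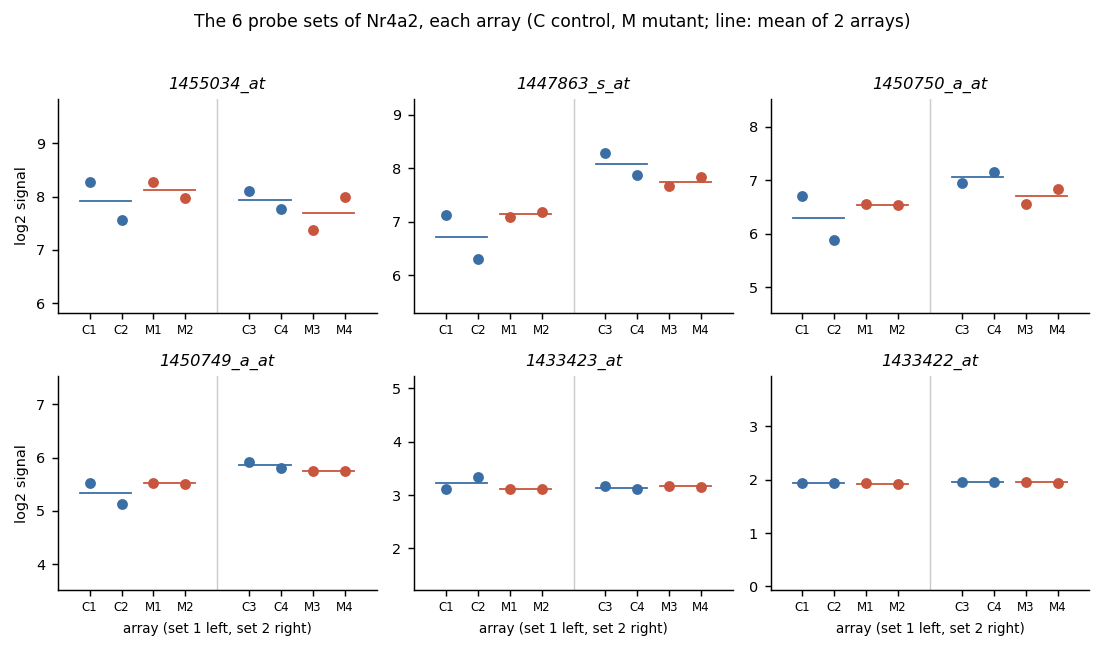
Log2 signal of the 6 Nr4a2 probe sets (vertical axis, each panel spanning 4 log2 units) on the 8 arrays, controls in blue and mutants in red, with lines at the means of 2 arrays. In 1447863_s_at the 4 set 2 arrays sit above the 4 set 1 arrays, in 1455034_at they do not, and the 2 dimmest probe sets are flat.

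The mutant difference was also compared between sets. In set 1, 8 of the 10 genes had higher values in mutants with a median of 0.26, and in set 2, 1 of 10 (Ier2) did, with a median of -0.14. Over all genes, 41.2% were higher in mutants in set 1 and 49.4% in set 2. The difference between sets, tested as an interaction, passed in 0 of 15 member probe sets, with adjusted p from 0.824 to 0.941, beside 0.0518% of all probe sets. Without mutant 1, where set 1 keeps mutant 2 as its single mutant array, the 2 Egr2 probe sets passed. The set counts rested on single arrays. In set 1 it was 3 of 10 higher without control 2, beside 44.1% of all genes. In set 2 it was 5 of 10 without mutant 3 and 3 of 10 without control 4, beside 46.6% and 47.1% of all genes. It was 0 of 10 in set 2 without control 3 or without mutant 4, beside 51.6% and 50.6%. After median centring the set 1 count was 6 of 10, a setting for which the share of all genes was not computed.

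Like arrays of a set differed in 1 direction across the members in 2 of the 4 pairs. In control 1, all 10 genes read higher than in control 2 of the same set, where 47.8% of all genes did, with differences from 0.17 (Zfp36) to 3.19 (Nr4a3) and a median of 0.60. In mutant 4, all 10 read higher than in mutant 3, where 45.6% of all genes did, with differences from 0.04 (Egr2) to 0.96 (Ier3) and a median for mutant 3 minus mutant 4 of -0.53. The medians over all genes were -0.01 and 0.01. The other 2 pairs of like arrays were mixed. In mutant 2, 6 of 10 read higher than in mutant 1, where 39.9% of all genes did. In control 4, 7 of 10 read higher than in control 3, where 44.1% of all genes did. Among 43 other immediate-early genes, 34 read higher in control 1 than in control 2, and 30 read lower in mutant 3 than in mutant 4. In control 3, 29 of these 43 read higher than in control 4, the other way from most members. In mutant 1, 20 read higher and 23 lower than in mutant 2. All 10 members kept these directions after quantile normalization and after median centring. The pairs were compared after the values had been seen, and genes of 1 array share its RNA, so the counts describe these arrays only.

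**Figure D4:**
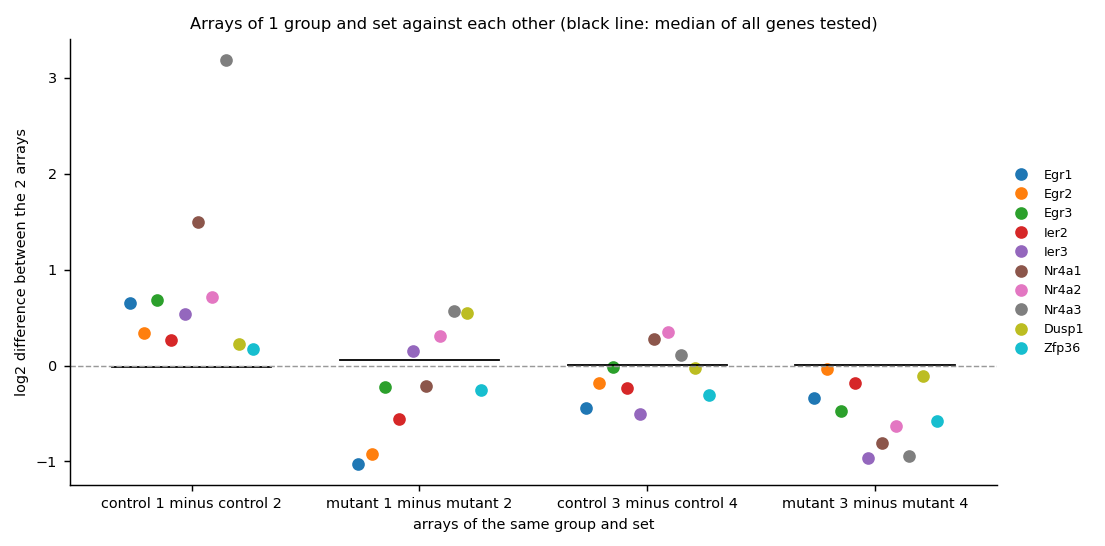
Log2 difference (vertical axis) between the 2 arrays of each group and set (horizontal axis), 1 coloured point per gene, with a black line at the median of all genes tested. All 10 points lie above 0 for control 1 minus control 2 and below 0 for mutant 3 minus mutant 4, and they lie on both sides in the other 2 pairs.

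The spread that remained after genotype and set was wide for most of these genes. The residual SD was 1.08 for Nr4a3, wider than in 97.9% of all probe sets tested, 0.93 for Egr2 1427683_at (97.1%), whose mutant 2 value stood apart, 0.58 for Nr4a1 (92.9%) and 0.43 for Egr1 (86.7%). Ier3 (0.40), the brighter Egr2 probe set (0.39), Nr4a2 (0.36), Egr3 (0.30), Zfp36 (0.27) and Ier2 (0.27) lay at percentiles from 68.4 to 84.1, and Dusp1 (0.19) at 49.8. Among probe sets of like mean signal, taken in 20 bins, Nr4a3, Nr4a1, Egr1 and Ier3 stood at percentiles of 98.7, 97.4, 92.5 and 91.1. The brightest probe sets of the remaining genes stood between 68.0 (Dusp1) and 86.8 (Nr4a2). The dimmer Egr2 probe set stood at 94.7. For Nr4a2, 1447863_s_at and 1450750_a_at stood at 84.7 and 75.3, and 1433423_at and 1450749_a_at at 41.1 and 19.0. These residuals set the widths of the intervals above, and only Dusp1 had an SE under 0.15 among the brightest probe sets.

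**Figure D5:**
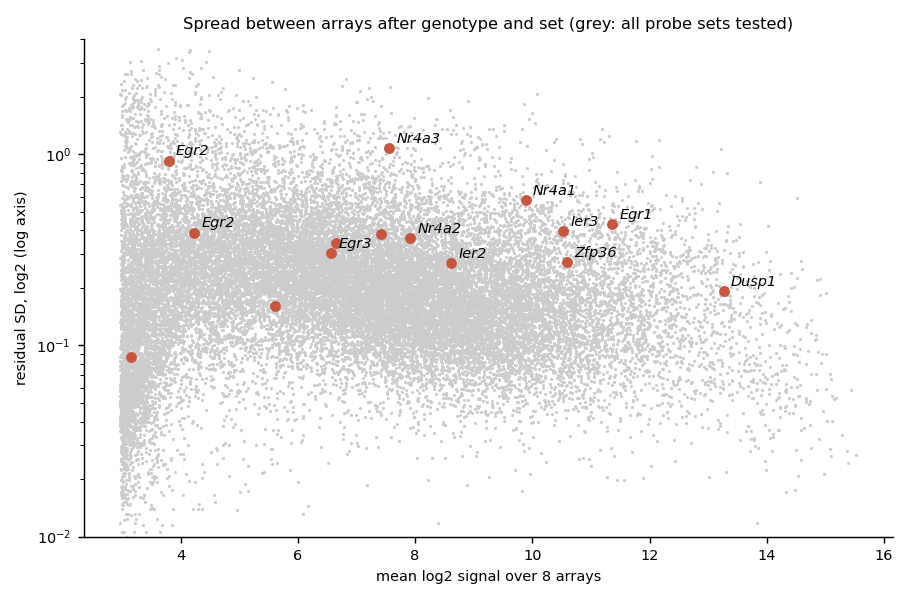
Residual SD after genotype and set (vertical log axis, log2 units) against mean log2 signal over the 8 arrays (horizontal axis) for all probe sets tested in grey and the 15 member probe sets in red. Nr4a3 at 1.08 and Nr4a1 at 0.58 sit near the upper edge for their signal, and Dusp1 at 0.19 sits nearer the middle.

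The pathways around these genes were read with the same fit, by counts and medians. Of 47 other immediate-early genes 43 were tested (Fosl1, Arc, Plk3 and Egr4 were too dim). In mutants 25 were higher and 18 lower, the median was 0.08, and 0 passed. At an unadjusted limma p under 0.05 there were 9 of the 43, beside 1266 of all 12176 genes. The smallest p values belonged to the Krüppel-like factors Klf4 (0.84, SE 0.20, adjusted p = 0.384) and Klf2 (0.99, SE 0.31), to Phlda1 (1.02, SE 0.29) and to Cebpd (0.60, SE 0.17), none passing. Klf2 and Klf4 are also known from endothelium, whose markers were higher on the mutant arrays, and that part was not tested. By set, 18 of the 43 passed, 13 higher and 5 lower in set 2, where 21.4% of all probe sets passed. That share counts probe sets, and the share of genes was not computed. Among Srf and its cofactors, 3 of 7 were higher, 0 passed and 1 had an unadjusted p under 0.05. Mrtfb, a myocardin relative, differed by 0.22 (SE 0.09, adjusted p = 0.510), the ternary complex factors Elk3 and Elk4 by 0.37 (SE 0.18) and 0.20 (SE 0.10), and Myocd by -0.25 (SE 0.17). Without mutant 2 the values were -0.06 for Myocd, 0.23 for Elk3 and 0.13 for Elk4, and without control 2 Elk4 differed by 0.12.

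Genes downstream of the proteins encoded by the members gave no call between genotypes either. Of 13 tested Egr corepressors and Egr1 target genes, 5 were higher, the median was -0.05 (-0.003 without mutant 2) and 0 passed, with 1 at an unadjusted limma p under 0.05. The adhesion molecule Icam1 had the smallest p (1.42, SE 0.41, adjusted p = 0.448), followed by Vegfa (0.52, SE 0.26), tissue factor F3 (0.58, SE 0.32) and Pdgfa (-0.19, SE 0.12). Of 14 dual-specificity phosphatases and ERK pathway inhibitors, 8 were higher and 0 passed (1 at an unadjusted p under 0.05), with Dusp10 at -0.62 (SE 0.24), Dusp4 at 1.04 (SE 0.47), Spry4 at 0.57 (SE 0.27) and Spred2 at 0.20 (SE 0.09). Of the cytokine mRNAs that Zfp36 destabilises, 7 were too dim to test (Tnf, Csf2, Il6, Il10, Cxcl2, Ccl2 and Ccl3). Of the 5 tested genes of that list 3 were higher, 0 passed and 0 had an unadjusted p under 0.05, and the smallest p values were those of Cxcl1 (0.30, SE 0.14), Zfp36l2 (0.29, SE 0.15), Zfp36l1 (-0.08, SE 0.21) and Il1b (-0.03, SE 0.07). Of 9 nuclear receptors related to the Nr4a family or partners of it, 5 were higher, 0 passed and 1 had an unadjusted p under 0.05, and the smallest p values belonged to Nr2f2 (0.36, SE 0.14), Nr1d1 (-0.60, SE 0.26), Rora (-0.31, SE 0.16) and Rxrb (0.10, SE 0.06). Without mutant 2 the values were 0.24 for Vegfa, 0.65 for Dusp4, 0.31 for Spry4, 0.23 for Nr2f2, -0.33 for Nr1d1 and -0.17 for Rora. Other single arrays moved F3 (0.255 without control 4 and 0.895 without control 3), Pdgfa (-0.09 without control 1), Dusp10 (-0.40 without control 1) and Zfp36l2 (0.17 without mutant 4), and Il1b and Zfp36l1 changed sign.

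Most SRF targets of the cytoskeleton had lower values in mutants. Of 20 tested, 15 were lower and 5 higher in mutants, the median was -0.12, and 0 passed, with 10 of 20 at an unadjusted limma p under 0.05. Of all 12176 genes, 6694 were lower, and 1266 were at an unadjusted limma p under 0.05. Their smallest p values were those of Tagln (-0.29, SE 0.05, adjusted p = 0.376), in which the Cre is inserted, Myh11 (-0.21, SE 0.05), talin 1 (Tln1, -0.31, SE 0.07) and non-muscle myosin Myh9 (0.36, SE 0.09). The difference between the 2 kinds of SRF target was not tested, and the list shares Tagln, Myh11, Acta2 and Cnn1 with the smooth muscle markers, all 10 of which had lower values in mutants.

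Fos was among the genes that followed Egr1 most closely. Likeness was the Pearson correlation over the 8 arrays after the mean of each set had been taken off, over 12175 genes, as a description of these arrays. For Egr1 the 5 highest were 0610010F05Rik (0.981), Trim59 (0.969), Fos (0.958), Phka2 (0.957) and Epb41l1 (0.950). Fos, whose promoter is the classic SRF target, read 11.56, 10.58, 10 and 10.75 in controls 1 to 4 and 10.55, 11.53, 10.04 and 10.26 in mutants 1 to 4, so control 1 and mutant 2 were the highest arrays, as for Egr1. For Nr4a1 they were Ppp2r3c (0.967), Psmd12 (0.966), Elp5 (0.960), Pno1 (0.958) and Ccn2 (0.954), all highest in control 1 except Ccn2, which was highest in control 3.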

How the data were processed

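Total RNA of the aorta, extracted with a fibrous tissue kit, was labelled and hybridised to Affymetrix arrays, per the labels' protocols. Each array has a column of log2 values in the deposited table, a scale read from their range of 0.90 to 15.82. GCOS is named in the submitters' processing notes, with no version, and what background correction, normalization and probe summary were applied is not given in the sources used. Symbols came from the platform annotation (34945 probe sets with 1 symbol, 932 with several and 9160 with none), and those with several symbols stayed unnamed.

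No further normalization was applied. After leaving out the dimmest 40% of probe sets by mean signal (lowest mean kept 2.97), limma 3.58.1 in R 4.3.3 was fitted to 27029 probe sets (12176 genes) with genotype and set as terms and a mean-variance trend. P-values are two-sided and Benjamini-Hochberg adjusted over all probe sets tested, with a threshold of 0.05. The SE given beside a difference is the moderated one of limma. The interaction of genotype and set was a separate limma fit over the same probe sets. The procedure was tested on simulated data. Replicates were numbered in accession order within a group. The members and lists were chosen with earlier results of these data known. Named genes are all member probe sets, the 4 of each list with the smallest p, and the 5 nearest to Egr1 and to Nr4a1. Srf was named as the floxed gene, and Dbh was named after its values were seen. Promoter windows are RefSeq's, and figures were drawn with matplotlib 3.10.9. Alternatives were other filters, scalings and variance models, no set block, array weights, single arrays left out and single sets. Within-set counts without single arrays were added after the data were seen.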

Additional observations from a re-analysis of the deposited data

Results flagged for a closer look

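Some values stood far from the other 3 arrays of their group by Dixon's criterion. In all, 12 of 108 groups of 4 values met it, 5 of them among 38 groups of the member probe sets, and chance flags about 1 in 20 groups. Egr2 probe set 1427683_at read 5.76 in mutant 2, where the other mutants read 3.35 to 3.69, and the summed signal of nerve and Schwann cell markers on that array was 14.15 beside 7.22 to 7.83. Nr4a3 read 5.06 in control 2, where the other controls read 8.25 to 8.37. The Nr4a2 probe set 1450750_a_at read 6.84 in mutant 4, beside 6.54 to 6.56. Among dim probe sets, Egr3 1421486_at read 1.45 in mutant 2 beside 1.47, and Nr4a3 1421080_at read 2.13 in control 1 beside 2.25 to 2.26. Outside the members, mutant 1 was high for Klf4 (10.78, others 10.56 to 10.57), Nr1d1 (9.69, others 8.47 to 8.53) and Myh11 (14.57, others 14.45 to 14.46). Mutant 2 was high for Nr2f2 (10.41, others 9.79 to 9.89). The summed smooth muscle markers were 17.14 in mutant 2, beside 17.29 to 17.30, and the summed skeletal muscle markers 6.92 in mutant 1, beside 7.69 to 7.82. What sets these arrays apart was not tested.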

How the results depend on the processing

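No member passed the mutant test under any alternative run, and for all probe sets the limma count was 0 except 10 with array weights and 11 without control 3. The deposited scaling, 8 arrays and wide residuals limit what could be seen. Of the alternatives for single members, 242 kept the direction of the mutant difference and 50 did not, all of differences that do not pass. The cause of the changes below was not tested.

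Mutant differences changed sign as follows. In set 1 alone they were 0.015 for Dusp1, 0.08 for Egr1, 0.25 for Nr4a2 1450750_a_at and 0.20 for 1455034_at. In set 2 alone they were -0.05 and -0.21 for Egr2 1427682_a_at and 1427683_at, -0.105 for Egr3, 0.025, -0.34 and -0.11 for Nr4a2 1433423_at, 1447863_s_at and 1450749_a_at, -0.065 for Nr4a3, -0.165 for Zfp36, -0.025 for Cxcl1, -0.07 for Dusp4, 0.005 for Il1b and 0.14 for Zfp36l1. Only in set 2 do titles share numbers between groups, and with the title number as a replicate block all these values were the same (Egr2 1427683_at at -0.21) and no member passed. Deviations of same-numbered arrays correlated at 0.064 over 12176 genes. With 2 arrays per group in set 2, this cannot show whether the numbers pair the samples, and the main fit did not use them. Array weights gave 0.094 for Dusp1, 0.075 for Nr4a2 1455034_at, 0.024 for Il1b and 0.020 for Zfp36l1. Quantile normalization gave 0.012 for Dusp1 and -0.0059 for Nr4a2 1450749_a_at, and median centring -0.035 for the latter and -0.033 for 1447863_s_at.

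With single arrays left out, mutant differences ran from -0.146 to 0.074 for Dusp1, -0.282 to 0.13 for Egr1, -0.05 to 0.914 for Egr2 1427683_at, -0.067 to 0.25 for Egr3, -0.529 to 0.747 for Nr4a3, -0.025 to 0.236 for Zfp36, -0.079 to 0.029 for Il1b and -0.266 to 0.076 for Zfp36l1. For Nr4a2 they ran from -0.075 to 0.017 (1433423_at), -0.202 to 0.198 (1447863_s_at), -0.072 to 0.089 (1450749_a_at), -0.279 to 0.064 (1450750_a_at) and -0.212 to 0.146 (1455034_at). Set differences ran from -0.375 to 0.037 for Egr1, -0.444 to 0.52 for Egr2 1427683_at, -0.217 to 0.10 for Egr3, -0.115 to 0.269 for Ier3 and -0.05 to 0.042 for Nr4a2 1433423_at. The count of members passing between sets ran from 0 to 5 and that for the interaction from 0 to 2. Set differences also changed sign with array weights for Egr1 (0.077), Egr2 1427683_at (0.39) and Egr3 (0.019), with quantile normalization for Egr3 (0.037), and with median centring for Egr3 (0.06) and Nr4a2 1433423_at (0.08). Ier2 no longer passed between sets without the filter (limma adjusted p = 0.0643) or after quantile normalization (0.052).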
